A study of Homo sapiens with 46 samples.

Results

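The libraries described here came from the Lamin A/C degron line (LAC) after 96 h of auxin (4 libraries) and after 16 h of auxin (4 libraries), chosen by the line and the treatment time in the labels. They are 8 of the 46 libraries of the study. The line was made from DLD-1, an established human colorectal adenocarcinoma line, and has a degron fused to the N terminus of its own Lamin A/C, so that auxin sets off loss of the protein. Auxin is a plant hormone that sends a degron-tagged protein to the proteasome. Both groups were kept in DMEM plus serum with 1 mM auxin, added from a DMSO solution, so the groups differ in the length of the same treatment. The groups set beside them had the same dose and times: untagged parental DLD-1 cells (4 libraries at 16 h and 4 at 96 h), the Lamin B1 degron line (LB1, 4 and 4) and the Lamin B2 degron line (LB2, 4 and 3). The labels do not say whether the LAC line is 1 clone, and no protein measurement was used here. Each library was 1 well of a 6-well plate, so the p-values measure the spread between wells.

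Lamins A and C, both made from the LMNA gene, are intermediate filament proteins of the nuclear lamina, the meshwork under the inner nuclear membrane. The lamina is tied through the LINC complex of SUN and nesprin proteins to the actin cytoskeleton outside the nucleus. Transcription programmes known to follow the state of that cytoskeleton are those of YAP, a coactivator that binds DNA through TEAD factors, and of SRF, whose coactivator MRTF is held back by free actin monomers. In the intestine, goblet cells secrete mucus and trefoil factors and enterocytes absorb nutrients.

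Total RNA was depleted of ribosomal RNA and sequenced, and the values are counts per gene. The 8 LAC libraries held 13607641 to 24609289 counts, and a count of 0 allows up to 3 counts, or 0.122 to 0.221 CPM (a count scaled to a fixed library total). Levels below are CPM scaled by TMM, a method that corrects for library composition. In bulk RNA, fewer cells of a kind and less RNA per cell cannot be told apart. Of 10 colon epithelial markers, 9 passed the filter on low counts, with a summed level of 7666 to 8977 CPM at 16 h and 6360 to 7570 CPM at 96 h, which did not overlap. Without TMM scaling, the sums of all 10 overlapped (7105 to 8426 and 6597 to 7480 CPM). The single markers were uneven on that scale. KRT8 had means of 3826 CPM at 16 h and 3504 CPM at 96 h, and CDX2 had 145 and 130 CPM. CDH1 (1043 and 854 CPM) and KRT19 (544 and 477 CPM) also had lower means at 96 h. EPCAM (496 and 530 CPM) and KRT18 (1575 and 1679 CPM) had higher ones. VIL1 (0.75 and 1.35 CPM), LGALS4 (0.209 and 0.33 CPM) and CEACAM5 (0.169 and 0.842 CPM) were low. CDX1 was at 0 in 7 of the 8 libraries. Markers of other cell types, many too low for the filter, were summed without TMM scaling. Fibroblast markers summed to 1.38 to 3.44 CPM at 16 h and 2.06 to 2.94 CPM at 96 h (4 of 10 at 0 in all 8 libraries, COL1A2, DCN, LUM and POSTN). Endothelial markers summed to 8.7 to 10.4 and 10.6 to 13.1 CPM (1 of 8 at 0, CDH5), and leukocyte markers to 2.93 to 3.16 and 3.23 to 4.27 CPM (3 of 10 at 0, CD3D and MS4A1 among them). The mitochondrial genome took 0.525% to 0.716% of the counts at 16 h and 0.908% to 0.958% at 96 h, without overlap. The part of this share and of the marker levels in the differences below was not tested.

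Between 16 and 96 h, 1133 of 21484 genes tested (5.27%) differed at an adjusted p under 0.05 (edgeR's quasi-likelihood test with Benjamini-Hochberg adjustment). Of these, 441 genes (2.05% of those tested) were higher and 692 (3.22%) were lower at 96 h. The 4 libraries of one time did not overlap the 4 of the other in 4308 genes (20.1%). Among the called genes this held for 1100, which is 97.1% of the calls. At least 2-fold changes were 213 higher and 80 lower, so the calls on the lower side were more numerous and mostly smaller. The split depended on the scaling. Higher genes made up 38.9% of calls with TMM, 57.7% with RLE scaling (675 higher, 495 lower), 76.9% with library size only (1041 and 313), 57.7% with DESeq2 (870 and 637) and 58.8% with a trend in GC content and length removed (1351 and 945). Library size only moved the median log2 fold change of all genes from 0.02 to 0.17. The log2 fold change had a Spearman correlation of -0.22 with GC content over 8534 genes, which are not independent of each other, and its part in the split was not tested. The gene groups below are described against the median of 0.02 over all genes, and the called genes named kept their direction under every scaling. Their counts of calls stand beside the shares over all genes, 2.05% higher and 3.22% lower. Among protein-coding genes with a mean of at least 5 CPM, these shares were 2% and 6.14%. Lists with few calls do not stand out from such shares by a test, since no list was tested.

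Of 20 measured YAP targets, 11 were lower at 96 h, 0 were higher and 9 did not pass the test, and the median log2 fold change was -0.63 in LAC and 0.01 in the parental line. CCN1 and CCN2 encode matricellular proteins secreted by the cell and ANKRD1 a nuclear and sarcomeric ankyrin repeat protein. All are textbook YAP targets. The 250 bases before the RefSeq start of ANKRD1, CCN2 and CPA4 are shown because these genes were lower in every 96 h library than in any 16 h library and hold the core of the TEAD motif (GGAATG, or CATTCC on the other strand), printed in capitals. The windows are from GRCh38.p14 and read 5′ to 3′ on the strand of the gene.
ANKRD1, chr10:90921088-90921337, minus strand: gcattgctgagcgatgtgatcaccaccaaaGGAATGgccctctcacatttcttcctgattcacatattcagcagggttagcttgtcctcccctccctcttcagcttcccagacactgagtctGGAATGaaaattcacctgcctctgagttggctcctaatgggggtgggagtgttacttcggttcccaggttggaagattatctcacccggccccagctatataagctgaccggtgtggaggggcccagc
CCN2, chr6:131951373-131951622, minus strand: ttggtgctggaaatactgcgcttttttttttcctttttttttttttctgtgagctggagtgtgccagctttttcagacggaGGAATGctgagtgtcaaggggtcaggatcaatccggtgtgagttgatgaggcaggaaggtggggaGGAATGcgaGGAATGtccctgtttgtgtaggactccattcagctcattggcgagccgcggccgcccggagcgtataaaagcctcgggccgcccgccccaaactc
CPA4, chr7:130292911-130293160, plus strand: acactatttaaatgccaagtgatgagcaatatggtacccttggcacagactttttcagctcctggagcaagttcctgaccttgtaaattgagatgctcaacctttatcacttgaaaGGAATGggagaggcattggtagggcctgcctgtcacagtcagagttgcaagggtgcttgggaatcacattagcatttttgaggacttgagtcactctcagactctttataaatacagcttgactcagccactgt
ANKRD1 held the core 220 and 128 bases before its start, CCN2 at 169, 104 and 95 bases and CPA4 at 134 bases. The core was present in 11.9% of 35116 promoters, in 13.3% of 11067 tested protein-coding genes, in 18.7% of 556 that were lower at 96 h and in 17.7% of 232 that were higher. Of 14 tested YAP targets with a promoter in the table, 8 held it (57.1%), and of the 8 that were lower 5 did (62.5%). The core was also held by 6 of 15 tested SRF and contractile actin genes with a promoter there (40%). A match of these letters is a description and does not show a bound site.

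CCN1 (ENSG00000142871.18, chr1:85580761-85584589) stood at 334, 350, 330 and 240 CPM in the 16 h libraries and at 98.3, 72.8, 71.3 and 78.9 CPM in the 96 h libraries. Every 96 h library lay below the lowest 16 h library, a fall from 314 ± 49.6 to 80.4 ± 12.4 CPM (mean ± SD, n = 4 each). This was a log2 fold change of -1.96 (SE 0.17) at an adjusted p of 7.36e-12. In the parental line CCN1 stood at 92.5 ± 6.35 CPM at 16 h and 101 ± 6.78 CPM at 96 h, so the 16 h LAC level was the high one and the 96 h LAC level was near the parental ones. Levels between the lines at 1 time were not tested. Before auxin the LAC line had 308 ± 23.5 CPM (n = 4). Those 0 h libraries were uneven in depth, at 3318819 to 29739484 counts, and their levels were not tested against the others.

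CCN2 (chr6:131948176-131951372) stood at 50.7, 53.2, 63.9 and 46.5 CPM at 16 h and at 20.2, 16.3, 16.6 and 20.8 CPM at 96 h. The groups did not overlap, at a log2 fold change of -1.54 (SE 0.16) and an adjusted p of 2.01e-09. An antisense gene, LINC01013, overlaps CCN2, and whether the counting used strand is not given in the sources used here. ANKRD1 fell from 22.3, 21.8, 23.1 and 16.4 CPM to 7.05, 5.76, 6.57 and 5.36 CPM. Library 4 at 16 h was the lowest of its group for CCN1, CCN2 and ANKRD1 and still above every 96 h library. ANKRD1 had a log2 fold change of -1.75 (SE 0.18, adjusted p = 1.82e-09), beside -0.76 in the parental line.

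PTPN14, a phosphatase that restrains YAP and is itself a YAP target, fell from 430, 416, 396 and 372 CPM to 220, 152, 149 and 191 CPM. The groups were far apart, with a log2 fold change of -1.18 (SE 0.13, adjusted p = 1.41e-08). Other members that are also regulators of the pathway were lower: the kinase LATS2 (-0.81, from 121 ± 9.03 to 69.2 ± 8.8 CPM), the scaffold AMOTL2 (-0.70), the LIM protein AJUBA (-0.90) and the scaffold WWC1 (-0.36). The lower members also included CRIM1 (-0.71), a membrane protein, F3 (-0.61), tissue factor, and ARHGEF17 (-0.65), a guanine nucleotide exchange factor. These 7 were named after their values were seen, so that every called member of the list is given. The call of F3 was lost without 16 h library 3, and that of ARHGEF17 without 96 h library 2. WWC1 was called only weakly (adjusted p = 0.0409) and lost its call under 7 of 8 single-library omissions, all but that of 96 h library 1. Its call was also lost with DESeq2, RLE scaling, library size only and the GC and length trend removed. The 9 members without a call ran from -0.76 to 1.23. The highest, AMOTL1, had 0.348 ± 0.176 CPM at 16 h and 0.858 ± 0.595 CPM at 96 h.

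CPA4, a secreted carboxypeptidase that is not on the YAP list, had the most negative log2 fold change by the naming rule. That rule took only called genes whose groups did not overlap. CPA4 stood at 44.7, 39.2, 43.4 and 27 CPM at 16 h and at 11.5, 6.65, 7.13 and 6.31 CPM at 96 h. Both the lowest 16 h library and the highest 96 h library kept the groups apart. Its log2 fold change was -2.27 (SE 0.22, adjusted p = 4.34e-10). NANOS1, an RNA-binding translational repressor, fell from 46.5, 44.5, 48.3 and 42.2 CPM to 14.6, 13.8, 12.4 and 11.2 CPM (-1.80, adjusted p = 5.44e-10). EIF3A overlaps NANOS1 on the other strand. The remaining lowest genes were KRTAP2-3 (-2.14), a keratin-associated protein, ALPP (-1.78), placental alkaline phosphatase, and PIK3AP1 (-1.76), an adaptor of PI3K.

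**Figure D1:**
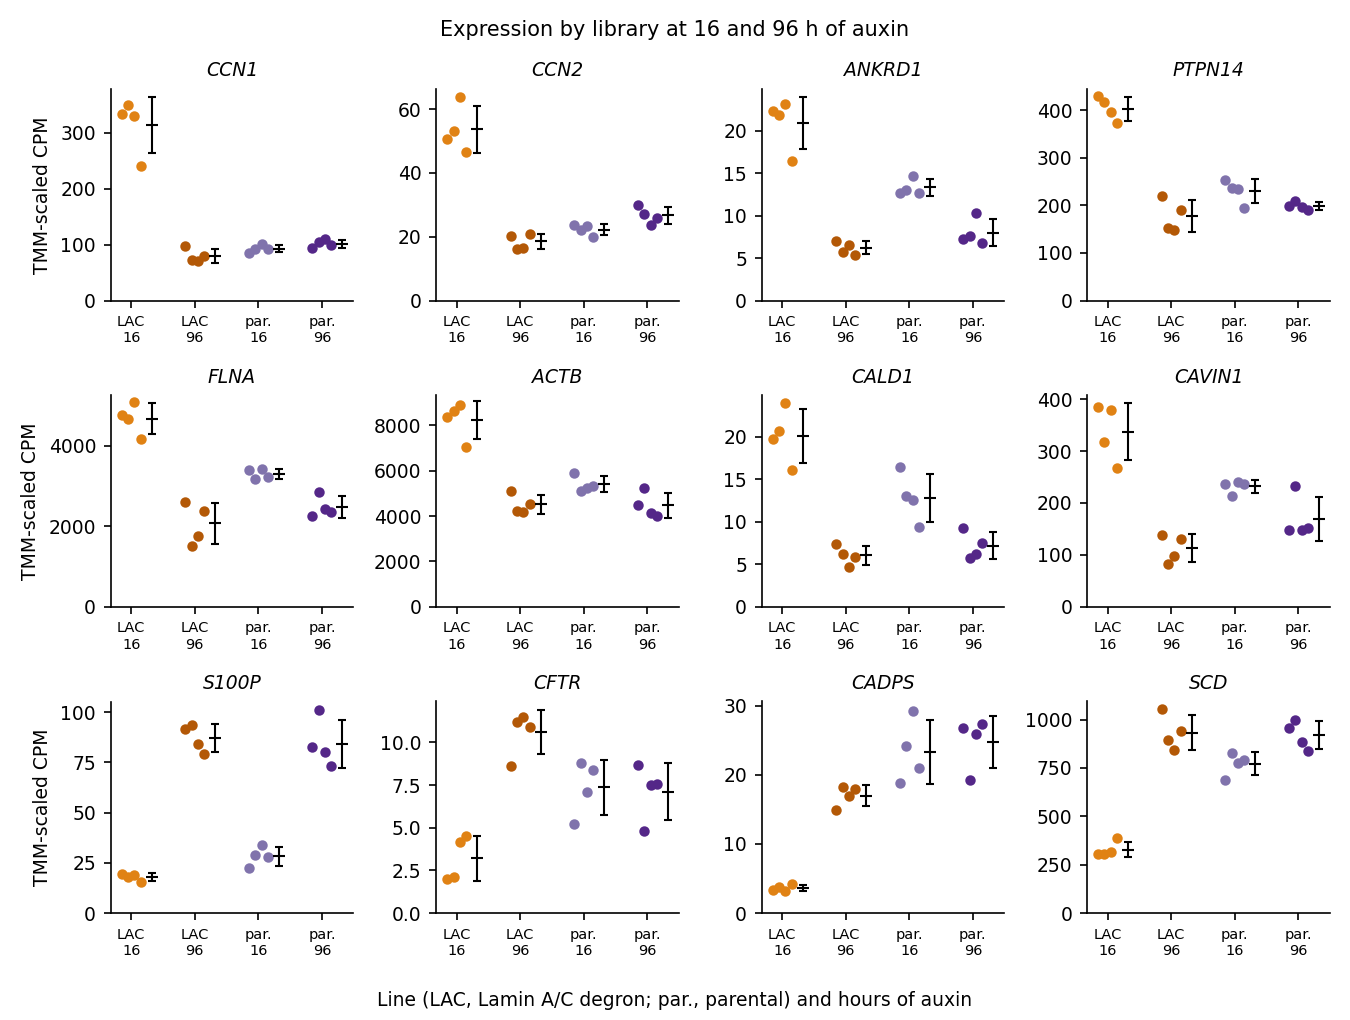
Expression of 12 genes by library in the Lamin A/C degron line (LAC) and the parental line at 16 and 96 h of auxin. The vertical axes are TMM-scaled CPM from 0, points are libraries (4 in each group) and bars are mean ± SD. Of the 4 groups plotted, LAC at 16 h had the highest mean for CCN1, CCN2, ANKRD1, PTPN14, FLNA, ACTB, CALD1 and CAVIN1. It had the lowest mean for S100P, CFTR, CADPS and SCD. S100P was higher at 96 h in both lines.

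Of 19 measured genes of contractile actin and SRF targets, 10 were lower, 0 were higher and 9 did not pass the test, with a median of -0.47 (parental median -0.22). FLNA, filamin A, which crosslinks actin filaments, stood at 4765, 4667, 5070 and 4159 CPM at 16 h and at 2611, 1516, 1764 and 2384 CPM at 96 h. Its 96 h libraries differed among themselves, 1 and 4 being higher than 2 and 3, and all lay below 16 h. The log2 fold change was -1.17 (SE 0.18, adjusted p = 1.02e-05). ACTB, cytoplasmic beta-actin, fell from 8379, 8631, 8901 and 7035 CPM to 5091, 4217, 4195 and 4535 CPM. No libraries overlapped, and the log2 fold change was -0.87 (SE 0.13, adjusted p = 9.01e-06). CALD1, caldesmon, which binds actin and myosin, fell from 19.7, 20.6, 23.9 and 16.1 CPM to 7.38, 6.21, 4.72 and 5.8 CPM (-1.73, adjusted p = 6.94e-09) and was the only member also called in the parental line (-0.83, adjusted p = 0.0462).

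The other lower members were the calponin CNN2 (-0.78), gamma-actin ACTG1 (-0.66), non-muscle myosin heavy chain MYH9 (-0.64), the focal adhesion protein ZYX (-0.63), alpha-actinin ACTN1 (-0.53) and the tropomyosins TPM1 (-0.48) and TPM4 (-0.40). Except CNN2, these were named after their values were seen. The 4 libraries of a time did not overlap in any of them, which held for 97.1% of all calls and 20.1% of all genes tested. Without 96 h library 2 the count was 6, with MYH9, ZYX, ACTN1 and TPM4 lost. MYH9 and ZYX were also lost without 96 h library 3, TPM1 without 16 h library 2 or 3, and TPM4 without any 1 of the 8 libraries. SRF itself (-0.26, adjusted p = 0.383) and the smooth muscle members TAGLN (0.19) and ACTA2 (0.24) were not called. The promoters of FLNA, CNN2 and ACTG1 are shown because they hold a CArG box, the motif bound by SRF, in capitals, 94, 89 and 94 bases before the RefSeq start.
FLNA, chrX:154374635-154374884, minus strand: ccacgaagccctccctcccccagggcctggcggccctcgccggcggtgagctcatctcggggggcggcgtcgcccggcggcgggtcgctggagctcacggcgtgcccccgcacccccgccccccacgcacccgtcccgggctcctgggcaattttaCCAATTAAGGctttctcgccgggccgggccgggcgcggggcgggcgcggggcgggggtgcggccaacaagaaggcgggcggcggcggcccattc
CNN2, chr19:1026358-1026607, plus strand: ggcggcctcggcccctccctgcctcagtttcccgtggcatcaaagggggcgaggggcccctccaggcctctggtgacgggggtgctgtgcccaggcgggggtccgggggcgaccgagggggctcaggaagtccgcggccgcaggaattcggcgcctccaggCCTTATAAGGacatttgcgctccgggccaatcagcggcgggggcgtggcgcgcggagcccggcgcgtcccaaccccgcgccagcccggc
ACTG1, chr17:81512800-81513049, minus strand: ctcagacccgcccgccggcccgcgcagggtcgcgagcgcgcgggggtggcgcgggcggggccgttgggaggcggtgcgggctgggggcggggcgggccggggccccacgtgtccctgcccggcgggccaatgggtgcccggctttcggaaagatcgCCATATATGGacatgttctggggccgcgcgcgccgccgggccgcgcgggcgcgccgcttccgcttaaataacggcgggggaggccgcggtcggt
The motif was searched on both strands, and its outer CC or GG can be shared with the TEAD core. It was present in 1.16% of all promoters, in 1.51% of tested protein-coding genes, in 4.32% of those lower at 96 h, in 1.72% of those higher, and in 7 of 15 tested members with a promoter in the table (46.7%). Of the 42 members of the YAP and SRF lists, 32 had a promoter there.

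Genes of caveolae, the membrane pits that flatten under tension, were lower in 3 of 6 measured members (median -0.58). CAVIN1, which coats caveolae, stood at 384, 317, 379 and 268 CPM at 16 h and at 139, 83, 98.1 and 131 CPM at 96 h. The groups did not overlap, with a log2 fold change of -1.58 (SE 0.25, adjusted p = 2.51e-05). CAV1, the structural protein of the pit, fell from 55.5 ± 4.75 to 25.4 ± 3.37 CPM (-1.13, adjusted p = 9.82e-05). CAV2 was lower by a narrow margin (-0.57, adjusted p = 0.0409) and lost its call without any 1 of the 8 libraries, and also under DESeq2, RLE scaling and library size only. The parental median of the list was -0.33, with no member called.

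Cell adhesion and intermediate filament genes were lower in part. The list of keratins and other cytoplasmic intermediate filament genes, with the proteins that anchor them, had 6 lower and 1 higher of 12. The lower ones were mainly desmosome proteins and plakins, not keratins: PLEC, plectin (from 1474 ± 236 to 638 ± 204 CPM, -1.21, adjusted p = 0.00446), JUP, plakoglobin (-0.84), PPL, periplakin (-0.72), DSP, desmoplakin (-0.70), and PKP2, plakophilin 2 (-0.65), with the keratin KRT80 (-0.55). The simple epithelial keratins KRT8 (-0.28), KRT18 (-0.06) and KRT19 (-0.34) were not called. KRT20, a keratin of differentiated intestinal epithelium, rose from 39.5 ± 5.64 to 56.1 ± 2.79 CPM (0.51, adjusted p = 0.0265). Without 96 h library 3 the list had 4 calls. The call of PPL was lost without 16 h library 1 or 3 or 96 h library 2 or 3, that of KRT80 without 96 h library 3, and that of KRT20 without 16 h library 1, 2 or 3 or 96 h library 2 or 3. PKP2 and KRT80 were named after their values were seen.

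Of 12 integrin subunits, 2 were lower. ITGA1, which pairs to bind collagen, fell from 18.5 ± 2.49 to 8.3 ± 0.374 CPM (-1.15, adjusted p = 6.8e-05). ITGB4, the hemidesmosome subunit, stood at 407 ± 29.7 and 250 ± 56.6 CPM (-0.70, adjusted p = 0.0145), a call lost without 16 h library 3 or 96 h library 2 or 3. PELO lies within ITGA1 on the same strand, and GALK1 overlaps ITGB4 on the other. Matrix and basement membrane genes were mixed. THBS1, thrombospondin 1, fell from 765 ± 71.7 to 394 ± 42.1 CPM (-0.95, adjusted p = 6.54e-05). SERPINB5, maspin, rose from 13.7 ± 1.83 to 26.9 ± 0.764 CPM (0.97, adjusted p = 0.00033). AHNAK, a very large scaffold protein under the plasma membrane, was named after its values were seen. It stood at 2143, 1951, 1610 and 1881 CPM at 16 h and at 998, 553, 688 and 916 CPM at 96 h, and the groups did not overlap (-1.27, SE 0.16, adjusted p = 5.14e-07).

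Among immediate early genes, 4 of 19 were lower and 0 higher. JUN, a subunit of AP-1, fell from 97.2 ± 13 to 50.1 ± 7.01 CPM (-0.96, adjusted p = 0.0126), and DUSP1, a MAPK phosphatase, from 30.2 ± 2.82 to 17.8 ± 1.76 CPM (-0.76, adjusted p = 0.000613). FOSL2 (-0.57) and KLF6 (-0.50) were the others. Without 96 h library 2 the count was 2, with JUN and FOSL2 lost, and FOSL2 was also lost without 96 h library 3. FOS had 41 ± 7.23 and 36.4 ± 5.12 CPM in LAC and was not called.

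Of 13 measured goblet and secretory genes, 4 were higher, 0 were lower and 9 did not pass the test. The median was 0.80, and the parental median was 0.64 with no member called. TFF3, a trefoil peptide of intestinal goblet cells, stood at 4.13, 5.32, 5.37 and 4.44 CPM at 16 h and at 11.4, 10.6, 12.8 and 11.2 CPM at 96 h. The groups were separate (1.25, SE 0.20, adjusted p = 4e-05). TFF1, a second trefoil peptide, rose from 4.64 ± 0.319 to 10.2 ± 0.475 CPM (1.13, adjusted p = 0.00527). AGR2, a disulfide isomerase needed for mucin production, rose from 232, 260, 336 and 310 CPM to 491, 575, 566 and 475 CPM (0.89, adjusted p = 0.0012). REG4 was also called but had means of 0.046 and 0.41 CPM, close to the floor of 3 counts. The mucins MUC5AC (0.48) and MUC5B (0.18) were not called.

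S100P, a calcium-binding protein abundant in gut and placenta, had the largest rise by the naming rule. It stood at 19.4, 18, 18.8 and 15.4 CPM at 16 h and at 91.8, 93.6, 83.9 and 78.9 CPM at 96 h, a log2 fold change of 2.28 (SE 0.17, adjusted p = 6.56e-14). The parental line rose too, from 28.2 ± 4.57 to 84.2 ± 11.9 CPM (1.58, adjusted p = 2.31e-08). The difference between the lines was 0.70 (SE 0.23) and did not pass the test (adjusted p = 0.46).

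Enterocyte genes moved both ways, 4 higher and 1 lower of 14. TSPAN1, a tetraspanin, rose from 48.8 ± 5.1 to 92.1 ± 4.22 CPM (0.92, adjusted p = 4e-05), and KRT20 is described above. CEACAM1 (0.309 and 1.2 CPM) and CEACAM5 (0.185 and 0.835 CPM), cell adhesion molecules of the gut surface, were called at levels near the floor. HNF4A, a transcription factor of the gut and liver epithelium, fell from 40.1, 38.1, 43.4 and 38.6 CPM to 25.7, 21.5, 22.3 and 23.4 CPM (-0.79, adjusted p = 1.8e-06). It was also lower in the parental line (-0.46, adjusted p = 0.0385). The list had 2 calls without 16 h library 3, and 3 without 16 h library 1 or 2 or 96 h library 1 or 2. LGR5, the receptor that marks intestinal stem cells, was the 1 call among 18 WNT feedback genes, falling from 89.8 ± 6.87 to 49.5 ± 5.22 CPM (-0.86, adjusted p = 0.000382). With the GC and length trend removed, that list had 7 higher and 1 lower.

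Lipid synthesis genes did not move as a block. Of 30 measured, 3 were higher and 0 lower, with a median of 0.05. SCD, the desaturase that makes monounsaturated fatty acids, stood at 305, 305, 317 and 387 CPM at 16 h and at 1055, 893, 845 and 940 CPM at 96 h. The gap between the groups was wider than the range within either (1.51, SE 0.15, adjusted p = 5.44e-10). INSIG1, which retains the SREBP complex in the endoplasmic reticulum, rose from 55 ± 5.9 to 84.9 ± 1.69 CPM (0.63, adjusted p = 0.00257). STARD4, a sterol transporter, stood at 78.1 ± 4.26 and 113 ± 10.2 CPM (0.54, adjusted p = 0.0131), a call lost without 16 h library 2 or 3 or 96 h library 2 or 3. FASN, fatty acid synthase (-0.49), was not called.

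Of 32 hypoxia and glycolysis genes, 4 were higher and 4 lower. PDK1, a kinase that inhibits pyruvate dehydrogenase, rose from 29.8 ± 0.769 to 58.4 ± 6.39 CPM (0.97, adjusted p = 4e-05). EGLN3, an oxygen-sensing hydroxylase, rose from 7.13 ± 1.44 to 12 ± 1.49 CPM (0.74, adjusted p = 0.00272), and NDRG1, a stress-responsive protein, from 27.9 ± 1.16 to 42 ± 5.85 CPM (0.59, adjusted p = 0.0187). SLC2A3, the glucose transporter GLUT3, fell from 133 ± 14 to 59.8 ± 4.81 CPM (-1.15, adjusted p = 3.57e-06) and was also lower in the parental line (-0.75, adjusted p = 0.0197). The call of NDRG1 was lost without 16 h library 2 or 3 or 96 h library 1 or 4. The list had 4 calls without 16 h library 3, without 96 h library 2 and without 96 h library 3. BHLHE40, a repressor that acts in the clock and in hypoxia, rose from 21.9 ± 2.44 to 36.8 ± 5.66 CPM (0.75, adjusted p = 0.00322) and was the 1 call among 17 clock genes.

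Of 23 genes of the ATF4 stress response, 4 were lower and 0 higher. They were SLC7A5, a transporter of large neutral amino acids (from 1716 ± 193 to 930 ± 170 CPM, -0.88, adjusted p = 0.00138), PSPH, of serine synthesis (-0.70), CHAC1, which breaks down glutathione (-0.61), and ATF4 itself (-0.43). The call of ATF4 was lost with library size only. In the unfolded protein response, the chaperones CALR (-0.75, adjusted p = 0.0013) and HSP90B1 (-0.47, adjusted p = 0.0345) were lower and DNAJB9 was higher (1.00, adjusted p = 0.00033), of 18 measured. DNAJB9 was also higher in the parental line (0.87, adjusted p = 0.0212). HSP90B1 kept its call in 1 of the 8 single-library omissions, that of 16 h library 1, and lost it with RLE scaling and library size only. ABCC3, an export pump for conjugated compounds, rose from 23.6 ± 1.12 to 53.7 ± 6.75 CPM (1.18, adjusted p = 6.94e-09), beside 0.59 in the parental line (adjusted p = 0.0197).

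CYP1A1, the main target of the aryl hydrocarbon receptor, a ligand-activated transcription factor, fell from 16.6, 16.7, 16.8 and 24.3 CPM to 8.5, 6.43, 7.54 and 7.63 CPM. Library 4 stood above the other 16 h libraries, and the groups did not overlap (-1.31, SE 0.20, adjusted p = 1.09e-05). The parental value was -0.40 (adjusted p = 0.671), and the difference between the lines, -0.91, did not pass the test (adjusted p = 0.396). The receptor's list had 2 lower of 10.

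Interferon-stimulated genes were split, 3 higher and 4 lower of 25. The sensors RIGI (0.98), OAS1 (0.84) and IFIH1 (0.54) were higher, and IRF7 (-0.78), OAS2 (-0.66), STAT2 (-0.48) and OAS3 (-0.47) were lower. OAS1 and IRF7 kept their calls in every alternative. RIGI lost its call without 16 h library 3 or 96 h library 2 or 4, and OAS2 without any 1 library except 16 h library 4. OAS2 also lost its call with RLE scaling, library size only and the GC and length trend removed. The count of the list was 3 without 16 h library 3 or 96 h library 2 or 3, and 4 without 16 h library 2 or 96 h library 4. The chemokine CXCL5 (-0.73, adjusted p = 0.000409) and the cytokine IL18 (-0.62, adjusted p = 0.00195) were lower, 2 of 20 in their list. Of 23 genes of the epithelial to mesenchymal transition, 3 were lower: LAMB3, a laminin chain (-0.73, adjusted p = 0.00878), COL4A2, a basement membrane collagen (-0.51, adjusted p = 0.0117), and TJP1, of tight junctions (-0.47, adjusted p = 0.0401). That list had 1 call without 16 h library 3 or 96 h library 2 or 3. With library size only, COL4A2 and TJP1 lost their calls. COL4A2 also lost its call with the GC and length trend removed, and TJP1 with RLE scaling. Of 20 MAPK feedback genes, 1 was called, beside 5.27% of all genes tested. This was the phosphatase DUSP6, which was lower (-0.55, adjusted p = 0.00655), a call lost without 16 h library 3.

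No lamin gene was called. LMNA, the gene of the tagged protein, stood at 402, 329, 355 and 317 CPM at 16 h and at 332, 203, 240 and 304 CPM at 96 h. The groups overlapped, and the log2 fold change was -0.38 (SE 0.26, adjusted p = 0.448). LMNB1 had -0.18 (adjusted p = 0.545) and LMNB2 -0.31 (adjusted p = 0.438). LMNA was called lower in 2 alternatives, with the compared libraries alone and with voom, and LMNB2 in 1, with voom. Over all alternatives the adjusted p ran from 0.037 to 0.727 for LMNA and from 0.0197 to 0.771 for LMNB2. RNA levels of LMNA do not check a degron, which acts on the protein. None of the 8 genes of lamins and their processing was called (median -0.18), among them the farnesyltransferase subunits FNTA (0.02) and FNTB (-0.09), the proteases ZMPSTE24 (-0.18) and RCE1 (-0.31) and the methyltransferase ICMT (-0.07). An unadjusted p under 0.05 was reached by 4063 genes in all.

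Of 14 genes in a list of inner nuclear membrane proteins and their partners, 1 was lower. TOR1AIP2, which activates torsin ATPases from the endoplasmic reticulum, stood at 636, 680, 756 and 694 CPM at 16 h and at 455, 436, 453 and 473 CPM at 96 h (-0.61, SE 0.12, adjusted p = 0.000522). The 4 libraries of each time were tight and apart. The other members were within 0.23 of 0 on the log2 scale and not called: the lamin B receptor LBR (-0.19), TMPO (-0.09), EMD (-0.05), LEMD2 (-0.12), LEMD3 (-0.22), BANF1 (-0.23), TOR1AIP1 (-0.16), TOR1A (-0.03), TMEM43 (0.01), ANKLE2 (-0.12), TMEM201 (0.02), TMEM120A (-0.08) and NEMP1 (0.11). The 6 genes of the LINC complex had no call: SUN1 (-0.03), SUN2 (-0.52, adjusted p = 0.119), SYNE1 (-0.38), SYNE2 (0.37), SYNE3 (-0.26) and SYNE4 (0.77). SUN2 passed the test, as lower, in 4 alternatives and SYNE2, as higher, in 5, which the closing section names. Among 17 heterochromatin genes, the HP1 proteins CBX5 (from 1046 ± 32.4 to 700 ± 123 CPM, -0.58, adjusted p = 0.0142) and CBX1 (-0.45, adjusted p = 0.0295) were lower. Neither was called without 96 h library 2 or 3, and CBX1 also not without 16 h library 2, 3 or 4 or with library size only.

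Growth-related groups had few calls. Of 25 mitosis genes, 3 were lower (CDC20 -0.54, TPX2 -0.45, PLK1 -0.39), and CDC20 alone kept its call in every single-library omission. TPX2 lost it without 16 h library 2 or 3 or 96 h library 2, 3 or 4, and PLK1 without all but 16 h library 4 and 96 h library 1. TPX2 also lost its call with library size only. PLK1 lost its call with RLE scaling, library size only and the GC and length trend removed. No call was made among 29 DNA replication genes, 19 p53 targets, 36 replication-dependent histone genes, 77 cytosolic ribosomal protein genes or 68 nuclear-encoded genes of the respiratory chain, with medians of -0.09, -0.16, 0.04, 0.12 and -0.03. The 13 protein-coding genes of the mitochondrial genome were not called in LAC either (median 0.34), though all 13 were above 0. With the compared libraries alone, 8 were called higher in LAC. In the parental line 12 of the 13 were called, at a median of 1.54, and the medians were 1.95 in LB1 and 1.09 in LB2. The difference between LAC and the parental line was called in 0 of the 13.

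The parental line was compared over the same times to separate what auxin and time in culture do without a degron. In that line 57 genes (0.265%) were called, and 28 of the LAC calls were called there in the same direction. The parental libraries held 6549862 to 37309421 counts at 16 h and 5603919 to 12247746 at 96 h, beside 13607641 to 24609289 in LAC. The part of depth in the smaller number of parental calls was not tested, so a gene without a parental call may still have changed there. The log2 fold change differed between LAC and the parental line in 26 genes (0.121%, 1246 at an unadjusted p under 0.05), 17 more positive and 9 more negative in LAC. Of the 26, 23 were also called in the same direction in LAC. The comparison shares the LAC libraries with the one above.

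CCN1 differed by -2.10 (SE 0.23, adjusted p = 1.05e-07) and CCN2 by -1.80 (SE 0.23, adjusted p = 3.48e-06), with parental log2 fold changes of 0.13 and 0.27. PTPN14 differed by -0.97 (adjusted p = 0.0083), CPA4 by -1.58 and NANOS1 by -1.24 (adjusted p = 0.0141 for both). Those of CCN1, CCN2 and PTPN14 held in every alternative. That of CPA4 was lost without parental 96 h library 1, LAC 16 h library 1 or LAC 96 h library 3, and that of NANOS1 without parental 96 h library 1 or LAC 96 h library 3 or 4. ANKRD1 (-0.99, adjusted p = 0.207) and FLNA (-0.76, adjusted p = 0.459) did not pass this test.

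CADPS, which primes dense-core vesicles for release, stood in LAC at 3.3, 3.72, 3.21 and 4.17 CPM at 16 h and at 14.9, 18.2, 16.9 and 17.9 CPM at 96 h. In LAC this was a log2 fold change of 2.23 (SE 0.21, adjusted p = 1.87e-10). Parental cells had 23.3 ± 4.56 and 24.8 ± 3.75 CPM, and LAC at 96 h lay below both means. Before auxin the LAC line had 6.63 ± 2.12 CPM (n = 4), so its mean was low at 0 h as well as at 16 h. The 0 h level was not tested, and the 0 h libraries were uneven in depth. The difference was 2.14 (SE 0.29, adjusted p = 8.88e-06).

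CFTR, the chloride channel of secretory epithelia, stood in LAC at 1.99, 2.12, 4.15 and 4.53 CPM and at 8.64, 11.2, 11.5 and 10.9 CPM. The 16 h libraries fell into a lower and a higher pair, both below 96 h (1.70, SE 0.25, adjusted p = 9.48e-06). The difference from the parental line was 1.76 (adjusted p = 0.0166), lost without parental library 2 of either time, LAC 16 h library 1 or 2, or LAC 96 h library 3. Its neighbour CTTNBP2 (chr7:117710651-117874139), which overlaps it on the other strand, rose from 1.3 ± 0.191 to 3.42 ± 0.455 CPM in LAC (adjusted p = 0.00257) and differed from the parental line by 2.12 (adjusted p = 0.00977). It was named after its values were seen.

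SCD differed by 1.26 (SE 0.21, adjusted p = 0.000848), with 772 ± 58.9 and 919 ± 72.1 CPM in the parental line. NPNT, nephronectin, a matrix ligand of integrins, rose in LAC from 7.77, 4.75, 5.61 and 7.53 CPM to 21, 14.8, 16.7 and 21.3 CPM (1.53, adjusted p = 2.05e-08) and differed by 1.34 (adjusted p = 0.00373). NDRG1 differed by 1.24 (adjusted p = 0.00527) and EGLN3 by 1.16 (adjusted p = 0.00905), with parental log2 fold changes of -0.65 and -0.42. The difference of EGLN3 was lost without LAC 16 h library 1. INSIG1 also differed (0.86, adjusted p = 0.0407). Its call was kept without parental 16 h library 1 or 4, parental 96 h library 2 or LAC 16 h library 4, and lost without any other 1 library.

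Other genes called in this difference were named after their values were seen. ASS1, of arginine synthesis, stood at 36.9, 41.4, 43.3 and 48.2 CPM at 16 h and at 107, 104, 115 and 101 CPM at 96 h (1.33, SE 0.12, adjusted p = 1.02e-10), and differed by 1.14 (adjusted p = 0.000121). CEMIP, which degrades hyaluronan, rose from 84.7, 109, 93.8 and 144 CPM to 269, 195, 198 and 247 CPM, and differed by 1.14 (adjusted p = 0.00727). LURAP1L (2.02, adjusted p = 0.0136) and PRR15L (1.07, adjusted p = 0.0141) were further ones. The difference of LURAP1L was lost without parental 16 h library 2, LAC 16 h library 1 or LAC 96 h library 3. That of PRR15L was lost without parental 16 h library 2, parental 96 h library 1, LAC 16 h library 1 or 3, or LAC 96 h library 1. Of the 3 genes that differed without a call in LAC, FOS had -0.17 in LAC and 1.19 in the parental line (difference -1.36, adjusted p = 0.0013), CLDN1 -0.45 and 0.59, and PFKFB4 0.39 and -0.71.

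**Figure D2:**
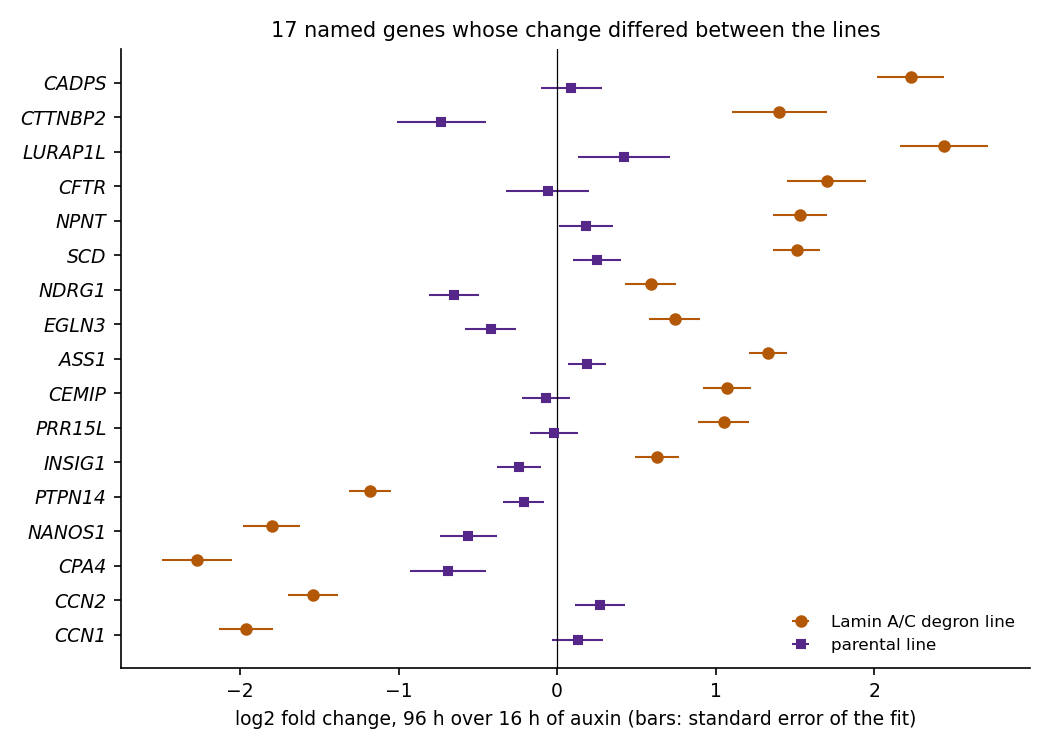
Log2 fold change of 96 h over 16 h of auxin, with the standard error of the fit, in the Lamin A/C degron line (circles) and the parental line (squares) for 17 named genes whose fold change differed between the lines. CCN1 and CCN2 lie at -1.96 and -1.54 in LAC and above 0 in the parental line, and CADPS lies at 2.23 in LAC and 0.09 in the parental line.

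Against the other degron lines few genes differed. The log2 fold change of LAC differed from that of LB1 in 36 genes (0.168%, 1442 at an unadjusted p under 0.05), and 10 of them were called in the same direction in LAC. The LB1 and LB2 values of the YAP and actin genes stood beside those of LAC. CCN1 had -1.38 in LB1 and -1.31 in LB2, ANKRD1 -1.87 and -1.01, CPA4 -1.81 and -1.86, and FLNA -1.59 and -0.31. None of these 4 differed from LAC by the test, which does not show that the lines respond alike. The YAP list had a median of -0.85 in LB1 and -0.26 in LB2.

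CADPS rose more in LAC than in LB1, by 1.62 (adjusted p = 0.00346). TFF3 rose less in LAC than in LB1, by -1.85 (SE 0.29, adjusted p = 0.000285), since LB1 went from 4.9 ± 0.563 to 42 ± 10.2 CPM. Both differences held in every alternative. CEMIP differed from LB1 by 1.08 (adjusted p = 0.014), lost without LB1 96 h library 4. FOS, at 0.94 in LB1, differed from LAC there too (-1.11, adjusted p = 0.019).

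From LB2, 1 gene differed (0.00465%, 989 at an unadjusted p under 0.05). It was AHNAK, with 1193 CPM at 16 h and 1221 CPM at 96 h on average in LB2, a difference of -1.30 (SE 0.24, adjusted p = 0.0387). The call was lost without LAC 16 h library 1 or 2, LAC 96 h library 2 or 3, LB2 16 h library 3 or 4 or LB2 96 h library 2 or 3. LB2 16 h library 3 held 479446 counts. With DESeq2, 17 genes differed from LB2.

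**Figure D3:**
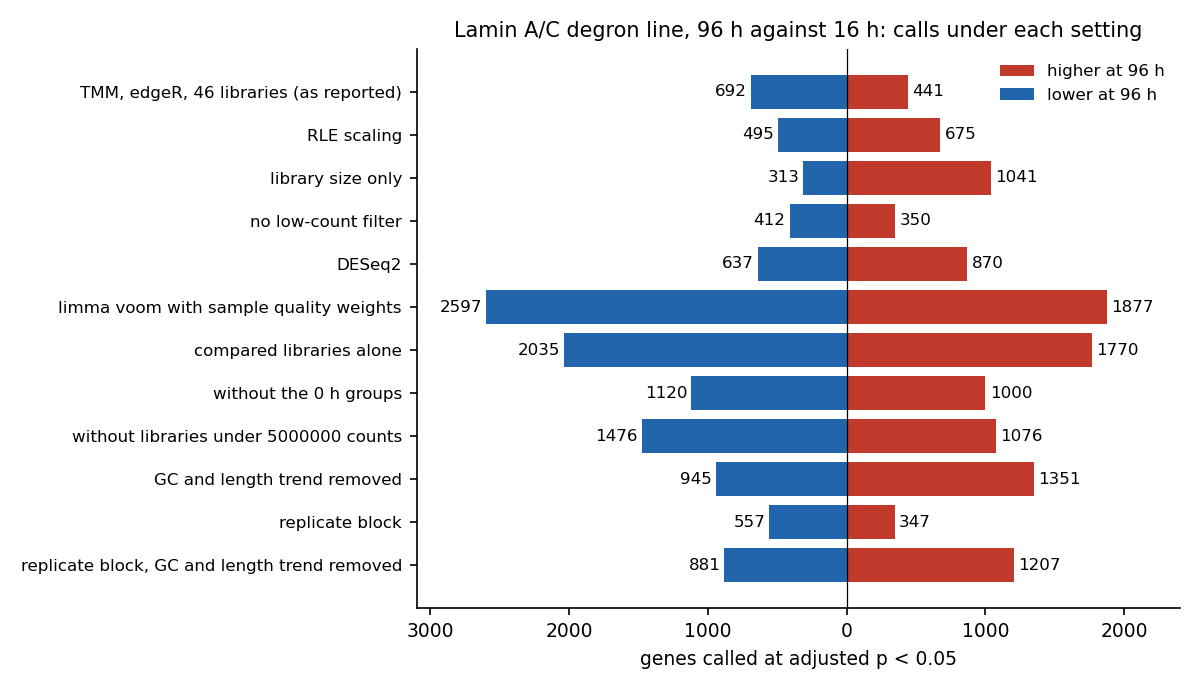
Number of genes called at an adjusted p under 0.05 in the Lamin A/C degron line, 96 h against 16 h, under each setting. Bars to the right of 0 count genes higher at 96 h and bars to the left genes lower at 96 h. TMM gave 441 higher and 692 lower, and library size only gave 1041 higher and 313 lower.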

How the data were processed

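RNA was sequenced from 46 libraries in 12 groups, of which the 8 of the Lamin A/C degron line at 16 and 96 h of auxin are described. The deposited values are raw counts, in 1 table for all libraries. FeatureCounts 1.6.4 produced them, per the file headers, and the submitters' processing notes name STAR 2.7.10a and GRCh38. Strand use, treatment of multimapping reads and the release of the annotation are not given in the sources used here, which leaves counts of overlapping and antisense genes uncertain. Every count column was matched to a library by name (0 unmatched), and 3 broken lines were left out.

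Counts were tested with edgeR 4.0.16 in R 4.3.3 (quasi-likelihood, two-sided) in 1 fit of all 46 libraries, with 1 coefficient per group, TMM scaling and filterByExpr (21484 genes kept). Benjamini-Hochberg adjustment ran over all of them, with a call at an adjusted p under 0.05. The standard error is the log2 fold change divided by the root of F. The steps were tested on simulated counts. No library was excluded, and replicate libraries differed by more than sampling noise.

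The members and the 38 gene lists were chosen with earlier results of these data known. SAMD4A was removed from a list after the table was seen. Named by rule were the lamins, the 10 highest and 10 lowest protein-coding calls with a mean of at least 5 CPM and no overlap of the groups, the 5 highest and 5 lowest differences from the parental line among such genes, up to 4 called members of each list with a mean of at least 1 CPM, and all lamin, inner nuclear membrane and LINC genes. A further 21 genes, and a few others in the text, were named after their values were seen, and some genes are not reported here. Promoters are RefSeq's (GRCh38.p14). Alternatives tried were DESeq2 1.42.0, scaling by RLE or by library size only, no filter on low counts, limma 3.58.1 voom with sample weights, fewer libraries, a GC and length trend removed, the replicate number as a block and each library left out.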

Additional observations from a re-analysis of the deposited data

Results flagged for a closer look

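In 12 of 296 groups of 4 libraries examined, 1 library stood apart from the rest by Dixon's 95% criterion, which chance meets in about 1 group in 20. At 96 h, library 1 had 11.5 CPM of CPA4 (the others 6.31 to 7.13), 5 CPM of KRTAP2-3 (2.57 to 2.8) and 52.7 CPM of RNASEH2B (65.2 to 66.9). Library 4 at 96 h had 0.88 CPM of SYNE4 (1.79 to 1.96) and 14.2 CPM of EGLN3 (11.1 to 11.5), and library 2 had 10.3 CPM of MMP24 (9.34 to 9.4). At 16 h, library 3 had 47.2 CPM of ALPP (40.2 to 41.3), 146 CPM of TMEM43 (134 to 136) and 135 CPM of LATS2 (115 to 118). Library 4 at 16 h had 387 CPM of SCD (305 to 317), 24.3 CPM of CYP1A1 (16.6 to 16.8) and 1.66 CPM of LURAP1L (0.894 to 0.99).

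The log2 fold change in LAC differed from that in the parental line, by a test of the difference itself, in 17 named genes. The more negative ones were CCN1 (-2.10), CCN2 (-1.80), CPA4 (-1.58), NANOS1 (-1.24) and PTPN14 (-0.97). The more positive ones were CADPS (2.14), CTTNBP2 (2.12), LURAP1L (2.02), CFTR (1.76), NPNT (1.34), SCD (1.26), NDRG1 (1.24), EGLN3 (1.16), ASS1 (1.14), CEMIP (1.14), PRR15L (1.07) and INSIG1 (0.86).

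It differed from that in LB1 for CADPS (1.62), LURAP1L (1.62), CEMIP (1.08), SCD (0.91), TXNRD1 (0.66) and TFF3 (-1.85), and from that in LB2 for AHNAK (-1.30).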

How the results depend on the processing

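Of 105 named genes called in LAC, 68 kept their call in every alternative and 0 changed direction. Most calls were lost without 96 h library 2 (25 genes), 16 h library 3 (23) or 96 h library 3 (22). Genes called in LAC numbered 3805 with the compared libraries alone, 4474 with voom, 2120 without the 0 h groups, 2552 without libraries under 5000000 counts, 2296 with the trend removed, 2088 with block and trend, and 568 to 1134 with 1 library left out. The differences from the parental line numbered, in that order, 151, 256, 58, 70, 112 and 99, then 55 with no low-count filter, 41 with DESeq2 and 12 to 26 with 1 library left out (12 without LAC 16 h library 1). Those from LB1 numbered 206, 279, 123, 212, 174 and 148, then 79 with no filter, 86 with DESeq2 and 13 to 32 with 1 library left out (13 without LB1 16 h library 2). Those from LB2 numbered 3 with the compared libraries alone, 603 with voom, 3 without shallow libraries, 4 with the trend removed, 0 with the block, 2 with library size only, 11 with no filter, 17 with DESeq2 and 0 to 11 with 1 library left out. Parental calls numbered 178, 567, 126, 171, 192 and 164, then 95 with no filter, 112 with DESeq2 and 30 to 52 with 1 library left out.

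With the replicate number as a block, LAC had 904 calls, 878 of them among the 1133. The differences from the parental line were 18, from LB1 34, and the parental calls 42. INSIG1 and LURAP1L were among the differences from the parental line lost under the block, SCD and LURAP1L among those from LB1, and AHNAK was the 1 lost from LB2. Libraries with the same number correlated at 0.085 to 0.311 over 4 pairs, and 2 of 4 at 16 h and 1 of 4 at 96 h correlated best with their own number, so the numbers were not taken to pair the libraries.

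Of 43 named genes without a call, 12 passed in an alternative (SUN2 and SYNE2 with the compared libraries alone, voom and without the 0 h groups, SUN2 also without shallow libraries, SYNE2 also with the trend removed and with block and trend) and 13 changed sign near 0. With library size only these were VWF 0.01, ICMT 0.08, FNTB 0.06, TMPO 0.06, EMD 0.10, LEMD2 0.03, TOR1A 0.12, ANKLE2 0.03, TMEM120A 0.08 and SUN1 0.12. With RLE scaling and DESeq2 they were ICMT 0.01, EMD 0.03, TOR1A 0.05, TMEM120A 0.00 and SUN1 0.05. With the trend removed they were VWF 0.05, ICMT 0.05, FNTB 0.05, EMD 0.09, LEMD2 0.04, TOR1A 0.06, ANKLE2 0.02, TMEM120A 0.08 and SUN1 0.11, and with block and trend VWF 0.03, ICMT 0.06, FNTB 0.06, EMD 0.13, LEMD2 0.05, TOR1A 0.06, ANKLE2 0.02, TMEM120A 0.06 and SUN1 0.10. With the compared libraries alone TOR1A had 0.00 and SUN1 0.01, and without the 0 h groups SUN1 had 0.00. With 1 library left out, EMD ran from -0.15 to 0.05, FNTA from -0.04 to 0.06, SUN1 from -0.06 to 0.01, TMEM120A from -0.16 to 0.03, TMEM201 from -0.06 to 0.07, TMEM43 from -0.03 to 0.04 and TOR1A from -0.12 to 0.00. The causes were not tested.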

Other observations

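Noncoding RNAs with calls were mostly higher at 96 h in LAC. Of 1749 long noncoding RNAs tested, 45 were higher (2.57%) and 8 lower (0.457%), beside 301 higher and 659 lower of 13541 protein-coding genes. Among those with a mean of at least 5 CPM, 23 of 260 long noncoding RNAs were higher and 3 lower, and 205 of 10227 protein-coding genes were higher and 628 lower. The libraries keep RNA without a poly(A) tail, and these classes differ in length and level. KCNQ1OT1, a long nuclear RNA antisense to KCNQ1 in an imprinted region, stood at 48.5, 43, 27.6 and 37 CPM at 16 h and at 59.5, 73.1, 69.9 and 69.5 CPM at 96 h (0.80, SE 0.19, edgeR adjusted p = 0.00619), and its call was lost without 16 h library 3. KCNQ1 overlaps it, so reads of the 2 genes may be mixed. LINC03040, named after its values were seen, had means of 6.90 and 15.5 CPM in LAC (1.17) and differed from the parental line by 1.48 (edgeR adjusted p = 0.0232).

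Further rises by the naming rule were CYP19A1, the aromatase that makes oestrogens (1.54, from 3.11 ± 0.802 to 9.14 ± 0.57 CPM, n = 4), LAMP3, a lysosomal membrane protein (1.48), EEF1A2, a translation elongation factor of muscle and neurons (1.47), LGALS3BP, a secreted galectin-binding glycoprotein (1.45, from 96.1 ± 3.95 to 262 ± 31.4 CPM), and STEAP1, a metalloreductase of the cell surface (1.41). Groups without overlap were a condition of the naming rule for these 5 genes, and each kept its call in every alternative. Their parental log2 fold changes were 0.65, 1.08, 0.74, 0.57 and 0.67, none of them called, and none of the 5 differed between the lines by the test.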
